A study of Mus musculus with 11 samples.

Results

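The proteasome is the barrel-shaped protease that degrades ubiquitin-tagged proteins, and its subunit genes were described here across cultured mouse cells given high glucose with the chaperone Hsp70, high glucose alone or normal glucose. Members were all genes whose symbol starts with Psma, Psmb, Psmc, Psmd, Psme or Psmg followed by a number and whose normalized count was at least 1 in at least 3 libraries. All 47 genes with such a symbol met that floor, among 18248 genes tested in the series. The cells were labelled as cavernous endothelial cells from mouse corpus cavernosum, the erectile tissue of the penis, and were kept for 5 days in M199 medium with fetal bovine serum, penicillin, streptomycin and heparin. There were 4 libraries of high glucose with Hsp70, 4 of high glucose and 3 of normal glucose. The labels give no glucose concentration, no dose or form of Hsp70, no strain, age or sex, and do not say whether replicates came from separate animals or cultures. P-values therefore measure the spread between these libraries, which may be technical.

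A file set number in the deposited file names ties libraries together, although the labels name no batch. Set 2 held replicate 1 of high glucose with Hsp70 and of high glucose, and no normal glucose library. Set 3 held replicate 2 of both high glucose groups and replicate 1 of normal glucose. Set 4 held their replicates 3 and normal glucose replicate 2, and set 5 held their replicates 4 and normal glucose replicate 3. Libraries of set 3 stood apart from the other 8. The summed normalized count of 10 leukocyte markers was 4887 to 5751 in set 3, against 538 to 873 outside it, and that of 10 endothelial markers was 1681 to 1847, against 201 to 412. The sum of 8 fibroblast markers was 332723 to 409285 in set 3 and 162372 to 265084 outside it, so fibroblast markers outweighed endothelial ones in every library and the endothelial label was poorly backed by its own markers. In bulk RNA such as this, fewer cells of a type and less RNA per cell cannot be told apart.

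A working 26S proteasome joins a 20S core to a 19S cap. The core stacks outer rings of alpha subunits on inner rings of beta subunits, of which Psmb5, Psmb6 and Psmb7 carry the constitutive catalytic sites. The cap holds a ring of ATPases, encoded by Psmc genes, that unfolds substrates, and non-ATPase subunits, encoded by Psmd genes, that bind and remove ubiquitin. Interferon exchanges the catalytic subunits for Psmb8, Psmb9 and Psmb10 and raises the PA28 activator made of Psme1 and Psme2, which yields the immunoproteasome that cuts peptides for antigen presentation. Core and cap genes are known to be raised together when proteasome activity is short, through the transcription factor Nfe2l1 acting on antioxidant response elements.

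The promoters of an inducible pair and a constitutive pair are shown because members of those classes lay on opposite sides in file set 3. Not each printed gene did so: Psmb6 differed there by 0.003, and Psme1, at -0.47, was not called. Any part of the motifs in that split was not tested. They are printed 5′ to 3′ on the gene's strand from 250 bases before to 30 bases after the annotated start, from RefSeq on GRCm38.p6, with the motif match in capitals. In Psmb8, which encodes an inducible catalytic subunit, the capitals mark a gamma-activated site, TTCNNNGAA, whose first base lay 97 bases upstream of the start. In Psme1, an activator gene, they mark an interferon-stimulated response element, a pair of GAAA blocks 2 bases apart, which is read on the other strand and begins 9 bases downstream of the start base. In Psmb5 and Psmb6, which encode constitutive catalytic subunits, they mark antioxidant response elements, TGACNNNGC, beginning 47 and 9 bases upstream.
Psmb8, chr17:34197945-34198224 (plus strand): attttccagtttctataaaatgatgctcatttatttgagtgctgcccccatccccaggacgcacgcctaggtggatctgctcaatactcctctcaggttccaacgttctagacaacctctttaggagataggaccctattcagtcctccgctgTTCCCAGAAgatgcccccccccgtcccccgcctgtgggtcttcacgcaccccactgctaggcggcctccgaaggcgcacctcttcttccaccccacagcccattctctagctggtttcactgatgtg
Psme1, chr14:55578244-55578523 (plus strand): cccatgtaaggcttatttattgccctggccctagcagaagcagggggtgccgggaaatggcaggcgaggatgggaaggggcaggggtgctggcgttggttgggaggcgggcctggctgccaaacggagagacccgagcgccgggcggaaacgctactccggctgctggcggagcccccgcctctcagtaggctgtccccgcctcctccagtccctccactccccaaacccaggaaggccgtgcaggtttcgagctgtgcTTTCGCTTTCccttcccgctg
Psmb5, chr14:54617966-54618245 (minus strand): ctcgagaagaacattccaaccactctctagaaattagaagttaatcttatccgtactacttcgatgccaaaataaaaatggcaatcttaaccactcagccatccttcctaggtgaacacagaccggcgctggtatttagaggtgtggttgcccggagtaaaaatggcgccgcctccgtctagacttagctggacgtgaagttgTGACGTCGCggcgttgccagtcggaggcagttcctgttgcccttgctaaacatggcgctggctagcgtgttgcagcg
Psmb6, chr11:70525107-70525386 (plus strand): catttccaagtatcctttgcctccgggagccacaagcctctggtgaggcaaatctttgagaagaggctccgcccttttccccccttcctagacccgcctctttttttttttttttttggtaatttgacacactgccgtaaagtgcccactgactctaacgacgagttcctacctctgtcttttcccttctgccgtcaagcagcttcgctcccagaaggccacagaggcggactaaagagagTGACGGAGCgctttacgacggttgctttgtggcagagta

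Both strands of 42 windows, reaching 50 bases past the start and covering 39 of the 47 genes, were searched for the 3 motifs, and no match overlapped a match of another motif. An interferon-stimulated response element was found in 5 member windows (11.9%), those of Psmb3, Psmd4, Psmd9, Psme1 and Psmg4, against 3.45% of 32544 windows in all. Matches to the gamma-activated site stood in 3 (7.14%), those of Psmb8, Psmd2 and Psmg1, against 8.33%. The antioxidant response element stood in 6 (14.3%), those of Psmb5, Psmb6, Psmc6, Psmd9, Psmd12 and Psme4, against 12.4%. Such a match is a run of letters and no measure of binding.

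Proteasome genes were abundant in every library. On the deposited scale, log2(normalized count + 1), the median over libraries reached 13.57 for Psme1 and lay at 6.52 for Psmg3, a chaperone of core assembly. Only 2 members were lower, the testis alpha subunit gene Psma8 at 0.97 to 3.65 and the thymus beta subunit gene Psmb11 at 3.54 to 6.73. Per kilobase of exon, the median normalized count was 1967 over the 7 alpha genes, from 824.5 for Psma2 to 4595 for Psma4. It was 1122 over the 7 constitutive beta genes, from 754.3 for Psmb5 to 2683 for Psmb6. The 6 ATPase genes had a median of 2042 per kilobase and the 11 non-ATPase cap genes 1656, so core and cap were of one order. The 5 immunoproteasome genes spread further, from 148.1 for Psmb9 to 10900 for Psme1, the highest of all 45 without Psma8 and Psmb11. The chaperones of cap assembly had a median of 201.3 and those of core assembly 209.5, below each ring. Across the 11 libraries these 45 genes moved little: the median range of a gene was 0.67 log2 units, from 0.30 for Psma4 to 1.45 for Psmb8, against 0.79 over the 6965 tested genes with a mean log2 value of 9 or more.

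**Figure D1:**
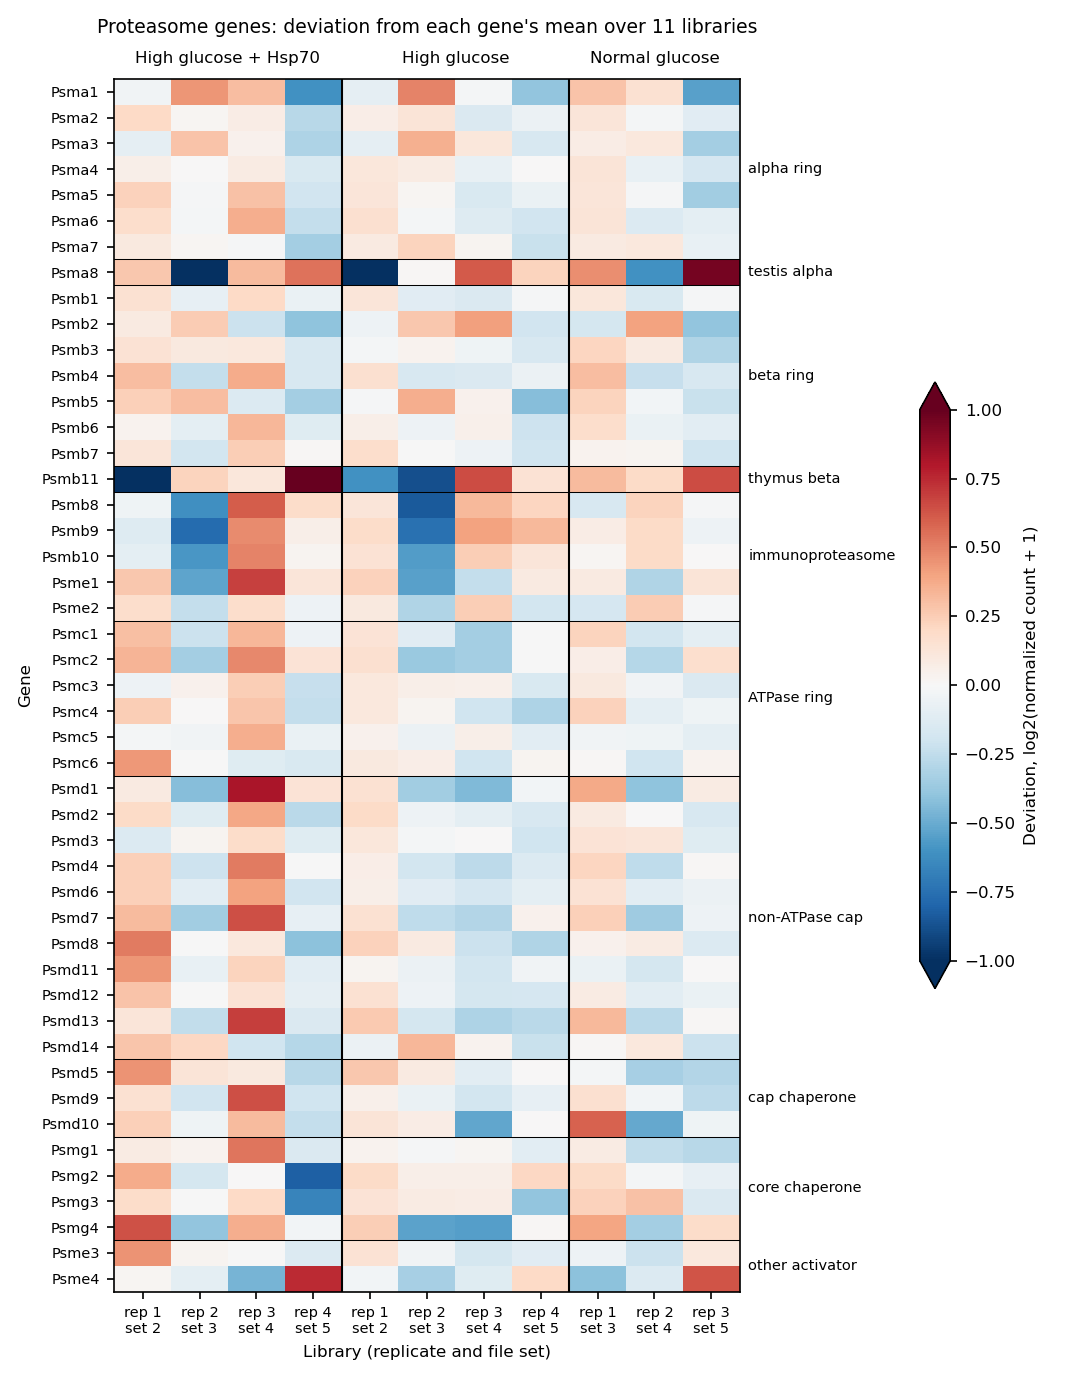
Heat map of the 47 proteasome genes (rows, by role) in 11 libraries (columns, by group, with replicate and file set). Colour is the deviation of log2(normalized count + 1) from the gene's mean over 11 libraries, capped at 1. High glucose with Hsp70 replicate 3 is red over most cap rows, most alpha and beta rows turn blue in set 5, and the immunoproteasome rows are blue in replicate 2 of both high glucose groups.

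High glucose with Hsp70 was set against high glucose alone to ask what the added chaperone changed. No proteasome gene passed the test. Cap genes had a median difference of 0.16 log2, or 0.08 without Hsp70 replicate 3, and core genes one of 0.05, or -0.01 without that library. Psmb5, the chymotrypsin-like subunit, measured 9.65, 9.72, 9.28 and 9.07 log2 in replicates 1 to 4 with Hsp70, against 9.41, 9.78, 9.46 and 8.99 in high glucose. Its means were 9.43 ± 0.31 and 9.41 ± 0.32 (SD, n = 4 each), and the libraries of the groups interleaved. Psmb6, the caspase-like subunit, read 11.15, 11.02, 11.45 and 10.995 with Hsp70 and 11.18, 11.06, 11.17 and 10.91 in high glucose. For Psmb7, the trypsin-like subunit, the values were 10.53, 10.23, 10.66 and 10.42 with Hsp70, against 10.58, 10.41, 10.36 and 10.21. Replicate 3 with Hsp70 was the highest of these 8 libraries for both Psmb6 and Psmb7, and the groups overlapped for both.

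The widest positive differences with Hsp70 belonged to Psmg4, a chaperone of core assembly, Psmd1, a large scaffold of the cap, and Psmc2, an ATPase. Psmg4 had log2 values of 9.21, 8.18, 8.94 and 8.54 with Hsp70 and 8.82, 8.04, 8.02 and 8.58 in high glucose, a difference of 0.35 (SE 0.26). Psmd1 had 13.21, 12.69, 13.94 and 13.26 with Hsp70, against 13.28, 12.77, 12.68 and 13.09, a difference of 0.32 (SE 0.26). Within sets 2, 3, 4 and 5 the Psmd1 difference was -0.06, -0.08, 1.26 and 0.17, so set 4 supplied nearly all of it. Psmc2 stood at 12.04, 11.37, 12.18 and 11.84 with Hsp70 and at 11.87, 11.33, 11.37 and 11.70 in high glucose, a difference of 0.29 (SE 0.20). That gene was higher with Hsp70 within each of the 4 sets, by 0.18, 0.04, 0.82 and 0.14.

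The widest negative differences were those of Psmg2, which pairs with Psmg1 in core assembly, the beta ring gene Psmb2 and the inducible Psmb9. Psmg2 read 7.99, 7.44, 7.62 and 6.80 with Hsp70, against 7.81, 7.68, 7.68 and 7.83 in high glucose, a difference of -0.29 (SE 0.22), and replicate 4 with Hsp70 was the lowest library of the 8. Psmb2 read 9.56, 9.73, 9.26 and 9.07 with Hsp70 and 9.42, 9.74, 9.88 and 9.28 in high glucose, a difference of -0.18 (SE 0.21). Psmb9, whose values stand with the file sets, differed by -0.14 (SE 0.29). Among the 8 libraries the groups overlapped for every one of the 47 genes.

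Across all genes, limma called 0 of 18248 (0.0%) between these groups after Benjamini-Hochberg adjustment at 0.05, and 0 of the 47 members. At an unadjusted p under 0.05 the counts were 0 members and 136 genes (0.745%), and the groups did not overlap for 0 members and 111 genes (0.608%). The sign was the same within all 4 sets for 4 members (8.51%), Psmc2, Psmd12 and Psme1 upward and Psma3 downward, against 8.31% of all genes. The 17 ATPase and non-ATPase cap genes had a median difference of 0.16, with 15 above 0, and the 14 alpha and constitutive beta genes one of 0.05, with 10 above 0. The median over all members was 0.09, against 0.003 over all genes tested. Without replicate 3 of the Hsp70 group the cap median was 0.08 with 13 of 17 above 0, that of the core -0.01 with 7 of 14, and the median over all members was 0.03. The 95% interval of the difference lay within 1 log2 unit of 0 for all 45 members other than Psma8 and Psmb11, and within 0.5, a fold of 1.41, for 21 of them. The lack of calls does not show that the levels were equal. Intervals of the remaining members reach past 0.5 log2 units, and the narrower ones leave smaller differences open.

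**Figure D2:**
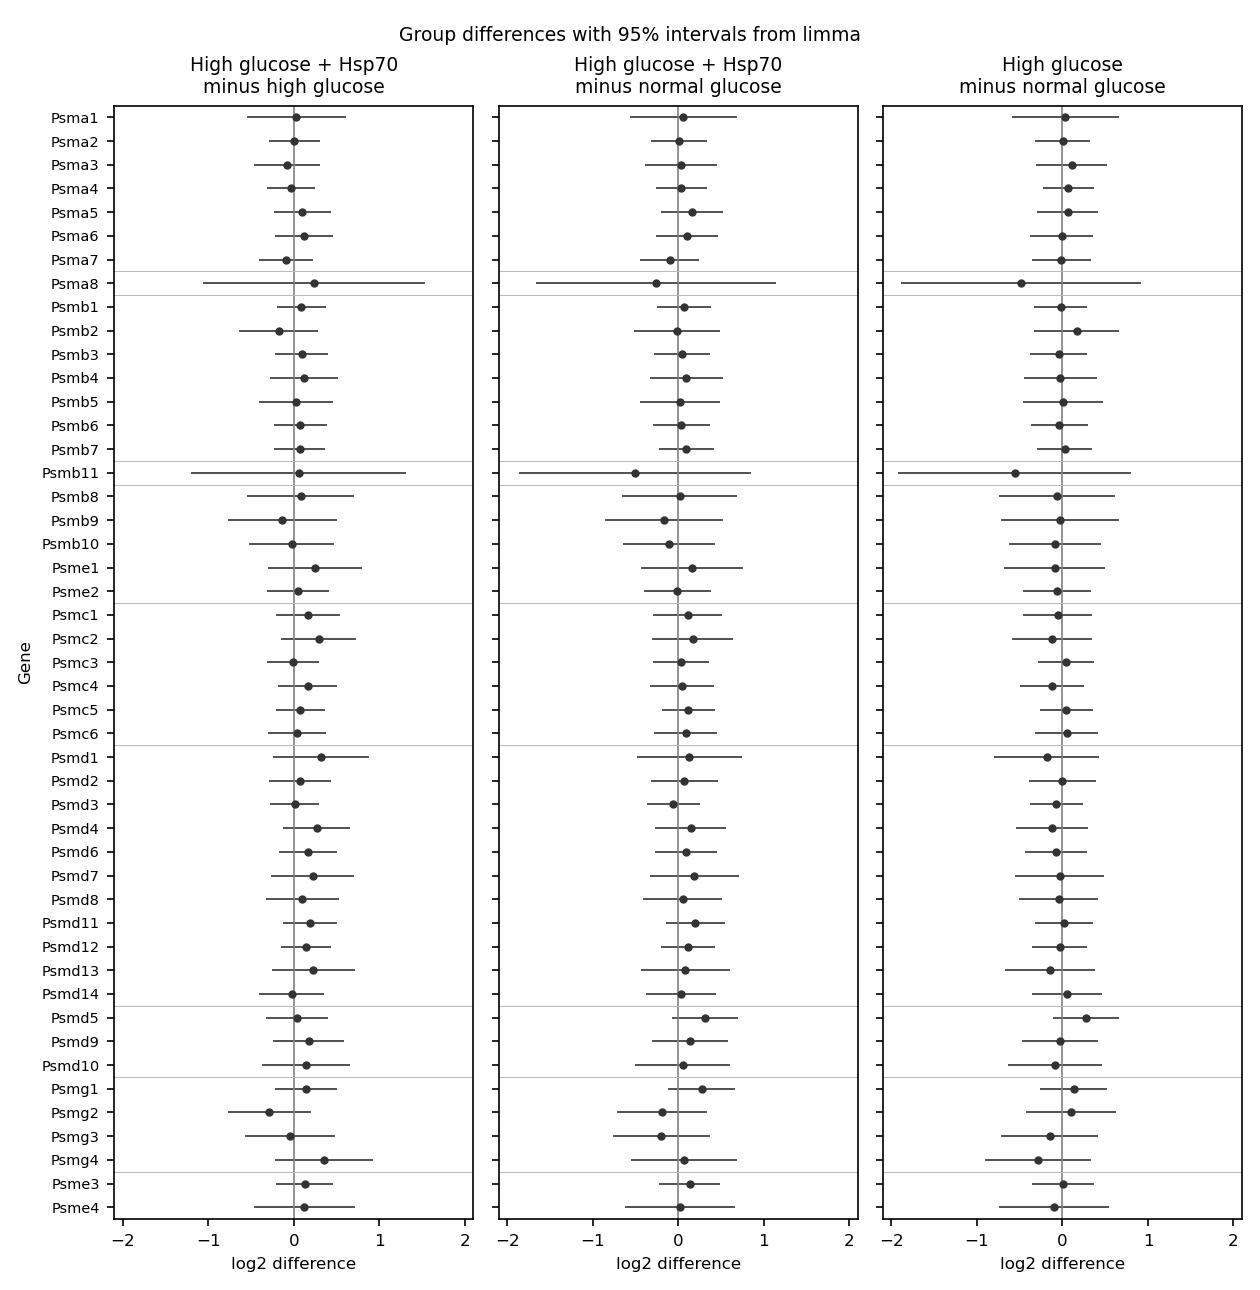
Differences of the 47 proteasome genes (rows) in log2 units, for high glucose with Hsp70 minus high glucose, high glucose with Hsp70 minus normal glucose, and high glucose minus normal glucose. Points are limma estimates and bars their 95% intervals. All 47 intervals cross 0 in each panel, and those of Psma8 and Psmb11 are the widest.

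Replicate 3 of high glucose with Hsp70 was the library in which the most proteasome genes peaked. It held the highest value of the 11 libraries for 24 of the 47 members (51.1%), against 17.4% of all genes tested, which includes 12 of the 17 cap genes and 6 of the 14 core genes. The lid subunit gene Psmd13 measured 12.30 there, 0.85 above the median of the other 10 libraries. The ubiquitin receptor gene Psmd4 measured 13.45, which was 0.59 above that median. The cap genes Psmd1 and Psmd7 stood 0.79 and 0.72 above it, as did Psmd9, a chaperone of cap assembly, by 0.72. Psme1 at 14.15 and Psmb8 at 11.42 were also at their peak, by 0.59 and 0.55. Psme4, the gene of the nuclear activator PA200, went the other way and was lowest of all libraries there at 11.68. The high glucose and normal glucose libraries of its set, set 4, held the highest value of 1 and 2 members. Replicate 3 with Hsp70 was also extreme over the whole series, being the highest for 17.4% and the lowest for 17.6% of all genes. Replicate 4 of the same group held the lowest value of 12 members (25.5%), against 9.27% of all genes. What sets replicate 3 apart was not tested.

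**Figure D3:**
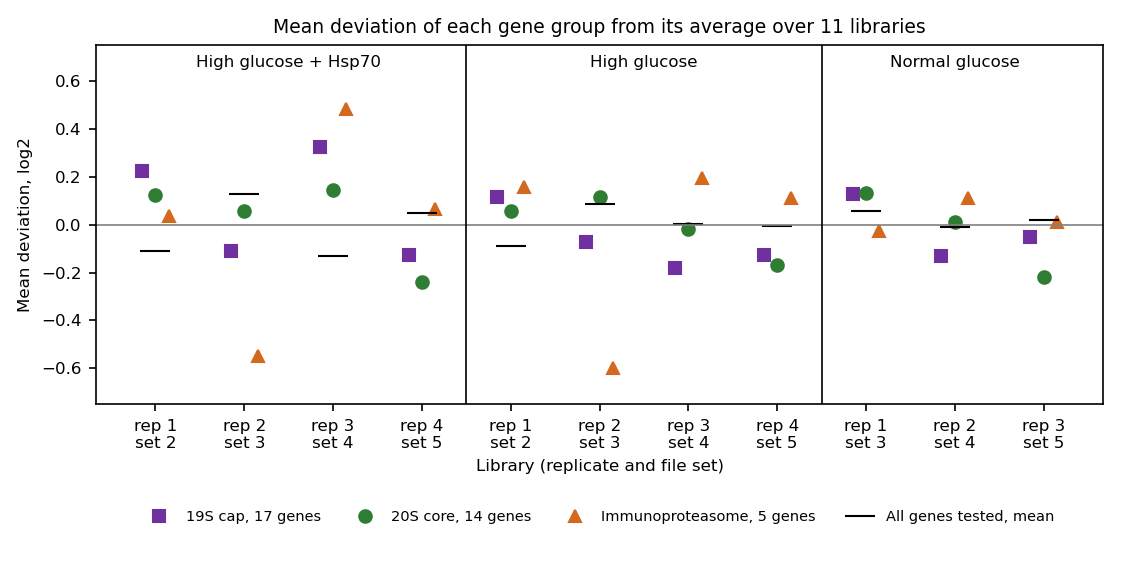
Mean deviation of the 17 cap genes (squares), 14 core genes (circles) and 5 immunoproteasome genes (triangles) from their averages over 11 libraries, in log2 units (vertical axis), for each library (horizontal axis, by group). Dashes give the mean over all genes tested. The cap reads 0.32 in high glucose with Hsp70 replicate 3, and the immunoproteasome -0.55 and -0.60 in replicate 2 of high glucose with Hsp70 and of high glucose.

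High glucose with Hsp70 was also compared with normal glucose, and again no member passed. The largest positive differences were in Psmd5, Psmg1 and Psmd11. Psmd5, a chaperone of cap assembly, read 10.24, 9.92, 9.89 and 9.51 with Hsp70, against 9.77, 9.46 and 9.49 in normal glucose, a difference of 0.31 (SE 0.18). It was higher with Hsp70 within each of the 3 sets that held both groups, by 0.15, 0.43 and 0.02, and 1 library of each group overlapped the other group. Psmg1 read 8.17, 8.13, 8.62 and 7.94 with Hsp70 and 8.17, 7.84 and 7.81 in normal glucose, a difference of 0.28 (SE 0.18). Within sets 3, 4 and 5 the Psmg1 difference was -0.04, 0.78 and 0.13. Psmd11, a lid gene, read 11.65, 11.13, 11.43 and 11.11 with Hsp70, against 11.14, 11.03 and 11.21, a difference of 0.20 (SE 0.16). Among the shared sets Psmd11 was higher with Hsp70 only in set 4, and its highest value, 11.65, came from set 2, which has no normal glucose library.

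On the negative side stood Psmb11, Psma8 and Psmg3. Psmb11 read 3.54, 5.76, 5.65 and 6.73 with Hsp70, against 5.85, 5.73 and 6.19 in normal glucose, a difference of -0.50 (SE 0.62). The value of 3.54 came from set 2, which has no normal glucose library. Over 20 alternatives the Psmb11 difference ran from -0.94 to 0.23, so its sign was not stable. Psma8 read 2.96, 1.62, 3.00 and 3.23 with Hsp70, against 3.15, 2.08 and 3.65 (difference -0.26, SE 0.64). The spread of these rare transcripts exceeded their differences. Psmg3 had 6.62, 6.43, 6.63 and 5.78 with Hsp70 and 6.66, 6.73 and 6.29 in normal glucose, a difference of -0.20 (SE 0.26), and was lower with Hsp70 within each of 3 sets. Of the exonic length of Psmg3, 26.8% is shared with the predicted gene Gm26938 on the same strand.

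Limma called 0 members and 0 genes (0.0%) for Hsp70 with high glucose against normal glucose. An unadjusted p under 0.05 was reached by 0 members and 178 genes (0.975%), and groups did not overlap for 0 members and 314 genes (1.72%). The sign was the same within all 3 shared sets for 4 members (8.51%), Psmd5 upward and Psma7, Psme2 and Psmg3 downward, against 17.5% of all genes. Of the 17 cap genes 16 lay above 0 with a median of 0.09, and of the 14 core genes 12 with a median of 0.04. Without replicate 3 of the Hsp70 group these counts were 10 of 17 (median 0.02) and 9 of 14 (median 0.01). With file set as a block and that replicate left out, 3 of the 17 cap genes lay above 0, with a median of -0.13. The 2 comparisons with Hsp70 share its 4 libraries, so their leanings are one observation.

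High glucose against normal glucose asks what glucose itself changed, and no member passed there either. Psmd5 had the widest positive difference at 0.28 (SE 0.18), from 10.06, 9.88, 9.68 and 9.79 in high glucose against 9.77, 9.46 and 9.49 in normal glucose, and 1 high glucose library lay under the highest normal glucose one. Psmb2 read 9.42, 9.74, 9.88 and 9.28 in high glucose and 9.30, 9.87 and 9.08 in normal glucose, a difference of 0.16 (SE 0.23). Psmg1 followed at 8.12, 8.08, 8.11 and 7.98, against 8.17, 7.84 and 7.81, with a difference of 0.13 (SE 0.18). All 3 overlapped between groups.

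The widest negative differences were again those of the rare Psmb11 (-0.56, SE 0.62) and Psma8 (-0.49, SE 0.64). In high glucose Psmb11 read 4.93, 4.65, 6.18 and 5.68, and Psma8 read 0.97, 2.70, 3.31 and 2.92. Psmg4 came next at -0.28 (SE 0.28), from 8.82, 8.04, 8.02 and 8.58 in high glucose against 8.97, 8.23 and 8.75 in normal glucose, and was lower in high glucose within each of 3 sets. For the catalytic genes the difference was 0.002 for Psmb5, -0.04 for Psmb6 and 0.03 for Psmb7, with standard errors of 0.22, 0.15 and 0.15.

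Counts were 0 members and 0 genes (0.0%) called by limma for high against normal glucose, and at an unadjusted p under 0.05, 0 members and 185 genes (1.01%). Groups did not overlap for 0 members and 435 genes (2.38%). The sign was the same within the 3 shared sets for 15 members (31.9%), against 25.6% of all genes. The core median was 0.002 with 8 of 14 above 0, and the cap median -0.04 with 5 of 17. All 5 immunoproteasome genes had an estimate below 0, from -0.09 to -0.03, but without high glucose replicate 2 all 5 had one above 0, with a median of 0.10.

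The activators outside the immunoproteasome overlapped between all groups. Psme3, the nuclear PA28 gamma, read 11.33, 10.90, 10.87 and 10.74 with Hsp70, 11.02, 10.84, 10.70 and 10.76 in high glucose and 10.83, 10.66 and 10.98 in normal glucose. Psme4 read 12.16, 12.05, 11.68 and 12.89 with Hsp70, 12.12, 11.81, 12.02 and 12.34 in high glucose and 11.73, 12.01 and 12.77 in normal glucose. In each group the highest Psme4 library was that of set 5.

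More genes were called among file sets than among groups, for the proteasome as for the series. Libraries of 1 set counted as separate samples, so p-values for sets do not measure the spread between sets. A model with group and set called 4 members (8.51%) among the 4 sets, Psma1 (adjusted p = 0.0087 by limma's F), Psme4 (0.039), Psmb8 (0.045) and Psmb5 (0.046), against 2165 of all genes (11.9%). The call of Psma1 was lost in 2 of 18 alternatives, those that left out high glucose replicate 2 or normal glucose replicate 3. Those of Psme4, Psmb8 and Psmb5 were lost in 11, 12 and 13 of them, with adjusted p by limma of up to 0.20, 0.21 and 0.18. Proteasome genes were called at a share close to that of the whole series. For each set against the mean of the other 3, the members called numbered 0 for set 2 (4.44% of all genes), 5 or 10.6% for set 3 (12.7% of all), 0 for set 4 (0.0658% of all) and 1 or 2.13% for set 5 (1.1% of all).

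In set 3 the alpha genes Psma1 and Psma3 and the catalytic Psmb5 were higher, and the inducible Psmb8 and Psme2 were lower. The 3 higher genes are 6.38% of the members, against 8.21% of all genes called higher, and the 2 lower ones are 4.26%, against 4.48%. Psma1 measured 11.06, 11.11 and 10.90 in the Hsp70, high glucose and normal glucose libraries of set 3. In the other sets it measured 10.58, 10.92 and 10.01 with Hsp70, 10.53, 10.60 and 10.22 in high glucose and 10.76 and 10.07 in normal glucose. The fitted difference was 0.56 (SE 0.11, adjusted p = 0.0088 by limma), and only the normal glucose library of set 3 lay below the highest library outside it. The call was lost without high glucose replicate 2 (adjusted p = 0.11 by limma) and without Hsp70 replicate 2 (adjusted p = 0.058).

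Psma3 measured 12.70, 12.77 and 12.49 in the same 3 libraries of set 3, and 12.07 to 12.53 outside it, with a difference of 0.34 (SE 0.10, adjusted p = 0.0475 by limma). For Psmb5 the libraries of set 3 read 9.72, 9.78 and 9.64, against 8.99 to 9.65 outside it, a difference of 0.38 (SE 0.11, adjusted p = 0.047 by limma). When each library was centred on its median, which moved the median of all genes in set 3 by -0.09, the Psma3 and Psmb5 differences were 0.25 (adjusted p = 0.14 by limma) and 0.29 (adjusted p = 0.11). These 2 calls were thus lost under that scaling, whereas Psma1 kept its call at 0.47 (adjusted p = 0.027 by limma). Scaling was not the only way to lose them, since each was lost in 12 of 18 alternatives. The Psma3 call was also lost with any library left out except Hsp70 replicate 3, and the Psmb5 call with any except Hsp70 replicates 1 and 3.

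The immunoproteasome genes leaned the other way in set 3, and their lowest values were in both high glucose libraries. Psmb8 measured 10.20, 9.97 and 10.65 in the Hsp70, high glucose and normal glucose libraries of set 3. Elsewhere it measured 10.77, 11.42 and 10.996 with Hsp70, 10.93, 11.13 and 11.03 in high glucose and 11.03 and 10.80 in normal glucose. All 3 libraries of set 3 lay under the other 8, with a difference of -0.73 (SE 0.16, adjusted p = 0.015 by limma). The call was lost without high glucose replicate 2, at -0.54 (adjusted p = 0.17 by limma), without Hsp70 replicate 2, at -0.65 (adjusted p = 0.11), and without high glucose replicate 1 (adjusted p = 0.054).

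Psme2 measured 11.18, 11.12 and 11.26 in set 3 and 11.24 to 11.68 outside it, a difference of -0.34 (SE 0.09, adjusted p = 0.038 by limma). With 1 library left out, the difference stayed between -0.35 and -0.33 and its adjusted p was 0.011 without Hsp70 replicate 3 and 0.065 to 0.23 without any other. Its values carry a caveat: a single-exon copy on chromosome 11, Psme2b, is 99.4% identical to Psme2 over 794 aligned bases, so reads may be split between them. The Psme2b difference in set 3 was -1.50 log2 (SE 0.36, adjusted p = 0.029 by limma).

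The remaining inducible genes did not pass, although Psmb9 and Psmb10 each did in 5 of 18 alternatives. Their adjusted p by limma ran from 0.0045 to 0.41 and from 0.0075 to 0.34 over the alternatives, lowest without normal glucose replicate 1 and highest without high glucose replicate 2. Psmb10 read 9.30, 9.33 and 9.91 in set 3, against 9.79, 10.38 and 9.91 with Hsp70, 10.03, 10.13 and 10.01 in high glucose and 10.07 and 9.89 in normal glucose outside it, a difference of -0.51 (SE 0.15, adjusted p = 0.054 by limma). Psmb9 read 6.81, 6.83 and 7.65 in set 3, against 7.45, 8.05 and 7.64 with Hsp70, 7.77, 7.98 and 7.90 in high glucose and 7.77 and 7.53 in normal glucose, a difference of -0.66 (SE 0.20, adjusted p = 0.067 by limma). Psme1 read 12.95, 12.93 and 13.57 in set 3 and 13.18 to 14.15 outside it, with a difference of -0.47 (SE 0.21, adjusted p = 0.20 by limma), which was -0.73 without normal glucose replicate 1 and -0.24 without Hsp70 replicate 2. For Psmb9, Psmb10 and Psme1 the normal glucose library of set 3 sat within the range of the other sets, while both high glucose libraries of set 3 were the lowest of the 11.

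Within set 3 the high glucose library thus lay below the normal glucose library by 0.68 log2 in Psmb8, 0.82 in Psmb9 and 0.58 in Psmb10, whereas in sets 4 and 5 high glucose was the higher by 0.10 and 0.23, by 0.21 and 0.37 and by 0.06 and 0.12. The library with Hsp70 in set 3 likewise lay below normal glucose by 0.45, 0.84 and 0.61 in these genes. Whether this difference itself differed between sets was not tested.

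**Figure D4:**
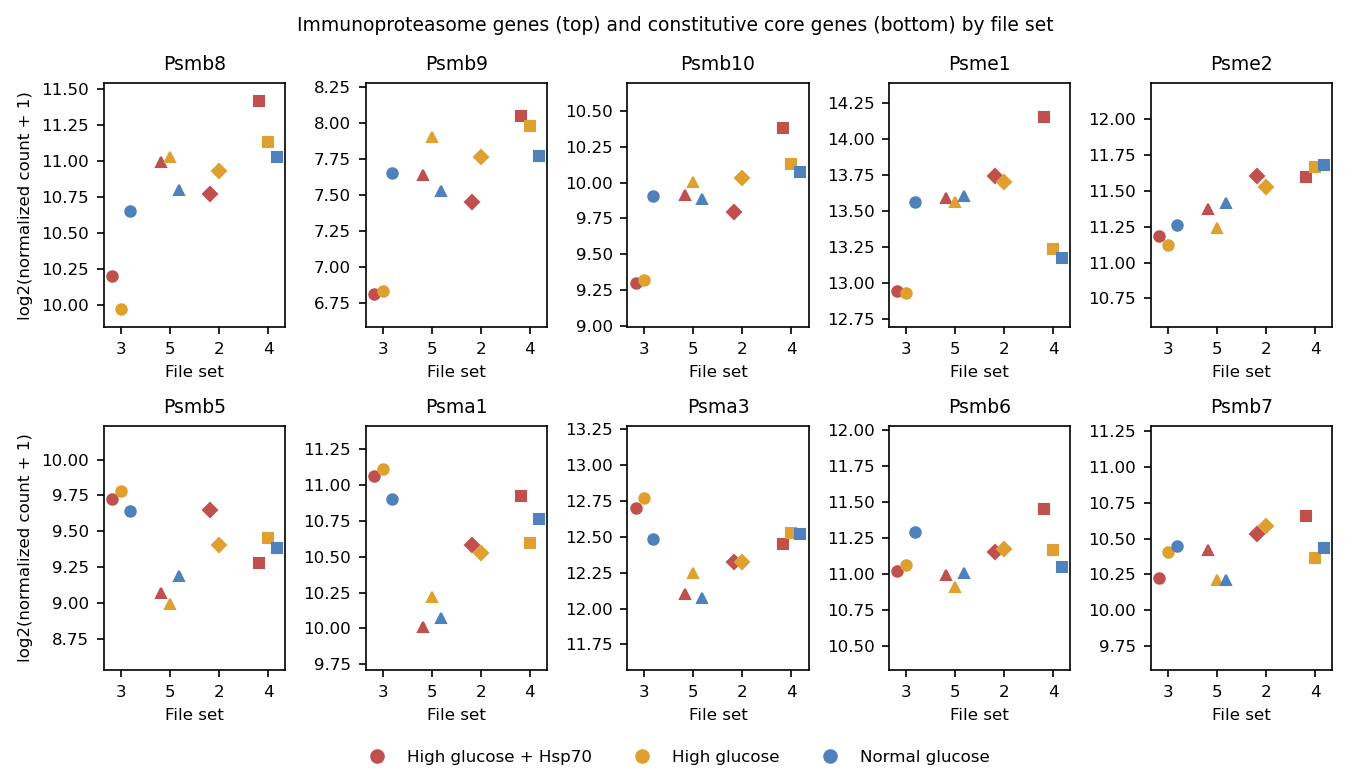
Values of 5 immunoproteasome genes (top) and 5 constitutive core genes (bottom) in log2(normalized count + 1) for each library, by file set, with sets 3 and 5 on the left. Colours give the groups. The 2 high glucose libraries of set 3 are lowest for Psmb8, Psmb9, Psmb10, Psme1 and Psme2. Set 5 is lowest for Psma1, Psma3, Psmb5 and Psmb6, and overlaps other sets for Psmb7.

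Set 3 libraries also had the highest counts of leukocyte markers, with 9 of 10 called higher, against 8.21% of all genes. Ptprc, the pan-leukocyte CD45, read 6.67 to 6.86 log2 in set 3 and 0.01 to 3.94 outside it. Adgre1, the macrophage antigen F4/80, read 9.14 to 9.52 and 1.13 to 3.98. Tyrobp read 4.74 to 6.21, against 0 to 1.22 with 2 of the 8 other libraries at 0, both of set 2. Every library of sets 4 and 5 had 2753 symbols at 0, against 4916 to 6010 in the libraries of sets 2 and 3. Zeros and values near 0 are thus not alike between sets, and why was not tested. Of the endothelial markers 9 of 10 were called higher in set 3, against the same 8.21%. All 3 libraries of set 3 carried these markers, with leukocyte sums of 4887 with Hsp70, 5751 in high glucose and 5093 in normal glucose. Their part in the values of set 3 was not tested.

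Per kilobase of exon, each inducible subunit was set beside the constitutive one it replaces. Psmb8 ran at 0.768, 0.631 and 1.11 times the level of Psmb5 in the Hsp70, high glucose and normal glucose libraries of set 3, and at 1.2 to 2.44 times outside it. The 3 libraries of set 3 therefore did not overlap the other 8 in this ratio. Psmb9 ran at 0.0319, 0.0315 and 0.0475 times Psmb6 in set 3 and at 0.0453 to 0.0733 times outside it. Psmb10 ran at 0.466, 0.418 and 0.609 times Psmb7 in set 3 and at 0.529 to 0.766 times outside it. For these pairs the normal glucose library of set 3 overlapped the others. Psme1 ran at 2.48 to 5.17 times Psme2 per kilobase, with no such split. By group, the log2 ratio of Psmb8 to Psmb5 was 0.56 ± 0.76 with Hsp70, 0.50 ± 0.81 in high glucose (SD, n = 4 each) and 0.57 ± 0.35 in normal glucose (SD, n = 3). Strand of counting is not given in the sources used here, and exons of Psmb7 share 34.9% of their length with Nek6, those of Psmb9 15.7% with Tap1 and those of Psmb8 11.4% with Gm20496, each on the opposite strand, so overlapping reads cannot be told apart.

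**Figure D5:**
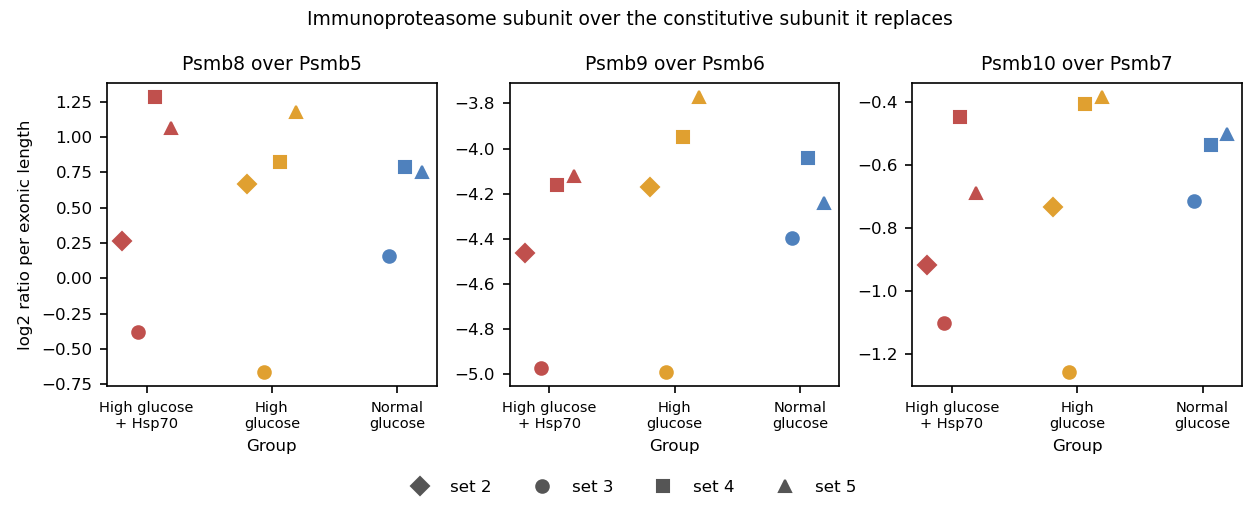
Log2 ratio per exonic length of each inducible subunit to the constitutive subunit it replaces (vertical axis), for the libraries of each group (horizontal axis), with the marker giving the file set. Circles, the libraries of set 3, are the lowest of each group for all 3 pairs.

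Genes of antigen presentation, which work downstream of the immunoproteasome, had lower values in set 3 as well. Of 10 such genes, none of them a member, 9 had a lower estimate in set 3 and 4 were called lower, with a median difference of -0.40. Over all 18248 genes tested, 9168 had an estimate below 0, 4.48% were called lower and the median was -0.002. The peptide transporter gene Tap1 was lower by -0.73 (SE 0.19, adjusted p = 0.037 by limma), at 9.98, 9.91 and 10.63 in the Hsp70, high glucose and normal glucose libraries of set 3 and 10.68 to 11.44 outside it. Nlrc5, which drives transcription of class I genes, differed by -1.05 (SE 0.16, adjusted p = 0.0023 by limma). The trimming peptidase gene Erap1 differed by -0.48 (SE 0.10, adjusted p = 0.015 by limma). The class I gene H2-D1 (0.09) and B2m (-0.09), the class I light chain, stood near 0. Tap1 lies between Psmb9 and Psmb8 on chromosome 17 in the class II region of the major histocompatibility complex, so these 3 also share a locus. None of the 10 was called between groups.

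In set 5 Psma1 was lower and was the only member to pass. All 14 alpha and constitutive beta genes had an estimate below 0 there, with a median of -0.27, while the median over all genes was 0.01. Psma1 measured 10.01, 10.22 and 10.07 in the Hsp70, high glucose and normal glucose libraries of set 5, under all 8 others at 10.53 to 11.11, a difference of -0.67 (SE 0.11, adjusted p = 0.036 by limma). That call was lost with any library left out except Hsp70 replicate 3 and normal glucose replicate 1, with an adjusted p of up to 0.39 without Hsp70 replicate 4. As 1 lower gene it makes 2.13% of the members, against 0.477% of all genes called lower, and 0 members were called higher, against 0.619%. Psmb5 came next at 9.07, 8.99 and 9.19, under all 8 others at 9.28 to 9.78, with a difference of -0.46 (SE 0.11, adjusted p = 0.070 by limma). Of the 17 cap genes 15 had an estimate below 0 there, with a median of -0.17. Psme4 was the opposite at 12.89, 12.34 and 12.77, above all 8 others at 11.68 to 12.16, a difference of 0.69 (SE 0.145, adjusted p = 0.057 by limma). Leaving out Hsp70 replicate 3 brings 8 members past the threshold in set 3 and 7 in set 5, and leaving out high glucose replicate 2 brings 0 in both. Such shifts were not particular to the members. Over 18 alternatives the count of all genes called ran from 966 to 3804 in set 3 and from 0 to 1929 in set 5.

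No member was called in set 2 or set 4. In set 2 the cap genes leaned upward, 16 of 17 with a median of 0.25, and the core genes did so in 11 of 14 with a median of 0.15, against a median of -0.04 over all genes. Psmd8, a lid gene, was nearest to a call there, with a difference of 0.50 (SE 0.13, adjusted p = 0.072 by limma). In set 4 all 5 immunoproteasome genes had an estimate above 0, with a median of 0.40, while core and cap had medians of 0.04 and -0.03. Without Hsp70 replicate 3, 4 of the 5 did, with a median of 0.30, and the Psme1 difference was -0.34, against 0.03 with it. The mean of the other sets includes set 3, where all 5 had their lowest set mean, which raises the set 4 estimates. Psmb8, Psmb9, Psmb10 and Psme2 had their highest set mean in set 4. Mean Psme1 was 13.52 in set 4, against 13.72, 13.15 and 13.59 in sets 2, 3 and 5.

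Regulators of the proteasome outside the symbol rule were read in the same fits. Of 22 genes for cap receptors, assembly, shuttles and control, 0 were called in any group comparison, with medians of 0.05 for Hsp70 against high glucose, 0.06 for Hsp70 against normal glucose and 0.02 for high against normal glucose. Nfe2l1, the transcription factor for proteasome genes, differed by 0.11 (SE 0.16), 0.04 (SE 0.18) and -0.07 (SE 0.18) in these. Pomp, the maturation factor of the core, differed by 0.13 (SE 0.18), -0.04 (SE 0.20) and -0.17 (SE 0.20). Among sets, Zfand2a, a heat-shock and arsenite inducible partner of the proteasome, was the only one of the 22 called. It was higher in set 2, where 4.44% of all genes were called, by 0.64 (SE 0.14, adjusted p = 0.039 by limma). Its log2 values were 10.16 and 10.19 in the Hsp70 and high glucose libraries of set 2, against 9.17 to 9.84 in the other 9. Set 2 holds no normal glucose library, so its comparison rests on the group term of the model.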

How the data were processed

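RNA-seq libraries were made by the submitters with a stranded low-input kit from Trizol RNA, per the labels' protocols, and TopHat, edgeR and the mm10 build are named in the submitters' processing notes without roles. The deposited values are log2(normalized count + 1), as the column names and values of the authors' table show, and the kind of normalization is not given in the sources used here. The table held 23282 rows, and 44 repeated symbols were dropped. Back-transformed totals were 24.8 to 27.8 M normalized counts per library. Genes reaching a back-transformed count of 1 in 3 or more libraries, 18248 in all, were fitted with limma 3.58.1 (R 4.3.3, trended and robust variance), with 3 group means in 1 model, and p-values were adjusted by Benjamini-Hochberg over all of them, with a threshold of 0.05. Set comparisons used group and set terms, with each set against the mean of the other 3. These comparisons are linked, since low values in 1 set raise the estimates of the others. Libraries of 1 set counted as separate samples there. Set numbers came from file names, groups from the labels. Because the number of symbols at 0 differed between sets, set comparisons of genes near 0 carry that limit. All 47 members matched GENCODE M21, which gave exonic lengths and overlaps, and promoters came from RefSeq. Scripts were tested on simulated data. The members, the gene lists and the markers were chosen with earlier results of these data known.

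Values in every library are given for the catalytic, immunoproteasome and other activator genes, for the 3 largest differences each way per group comparison, and for the leading genes among sets. Alternatives were other filters, pseudocount, scalings, variance model, blocks and libraries left out. Same-set libraries deviated together in 3 of 3 pairs of high and normal glucose (r = 0.285 to 0.594 across genes), in 3 of 4 pairs of Hsp70 and high glucose (0.0586 to 0.691) and in 2 of 3 pairs of Hsp70 and normal glucose (0.0219 to 0.458), so the numbers pair the first comparison by this measure. Unless a block is named, the group differences and intervals given here come from the model without a set term. Set 2, which lacks normal glucose, thus enters comparisons with normal glucose on the high glucose side only. Figures were drawn with matplotlib 3.10.9. Values of 1 gene of the antigen presentation list are not reported here.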

Additional observations from a re-analysis of the deposited data

Results flagged for a closer look

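In 94 checks, each of 1 gene over the 4 libraries of a group, 6 had a library that stood apart from the other 3 by Dixon's test at the 95% level, and chance gives about 1 in 20. In high glucose with Hsp70, the ATPase gene Psmc5 measured 11.8 log2 in replicate 3, with the nearest other library at 11.42. The beta ring gene Psmb3 measured 9.43 in replicate 4, with the nearest at 9.68, and the rare Psma8 measured 1.62 in replicate 2, with the nearest at 2.96. In high glucose, Psmb8 measured 9.97 and Psmb10 9.33 in replicate 2, the set 3 library, with the nearest at 10.93 and 10.01. The core chaperone gene Psmg3 measured 6.04 in high glucose replicate 4, with the nearest at 6.51.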

How the results depend on the processing

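In the 3 group comparisons 0 members were called under every alternative run, the replicate block by file set and by title number included. Adding the block by file set brought 0 genes past the adjusted threshold. In set 3, where 5 members were called, 3 were called with no filter on low values and 2 with no variance trend. In set 5, where 1 was called, 2 were called with median centring, 0 with no variance trend and 4 with no group term. In set 2, 1 was called with no group term, against 0. Among the 4 sets, where 4 were called, 1 was called with no variance trend and 7 with no group term. With 1 library left out, the count ran from 0 to 9 in set 2, 0 to 8 in set 3, 0 to 7 in set 5 and 0 to 15 among the sets, each highest without replicate 3 of high glucose with Hsp70, whose absence also raised the genes called among sets to 5195, against 2165. Set 4 gave 0 members throughout. The counts over all genes moved as well. Over 18 alternatives they ran from 4 to 2580 in set 2, against 810 in the main fit. In set 3 they ran from 966 to 3804, against 2317, and in set 5 from 0 to 1929, against 200. Blocks combined with a library left out were chosen after seeing the data, and the cause of these shifts was not tested. Psma8 and Psmb11, the least abundant members, had the widest intervals.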
